A study of Homo sapiens with 16 samples.

Results

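The 42 genes described here encode the heat shock proteins and chaperones of the cytosol, the mitochondria and the endoplasmic reticulum (ER), together with the sensors and disposal proteins of the ER. They were taken by gene symbol from a list and not by a threshold on their values, but the list was chosen with earlier results of these data known. All 42 were found among the 30813 genes of the count table. They fall into 18 cytosolic genes, 3 mitochondrial genes, 14 genes of folding in the ER and 7 genes of ER sensing and disposal. RNA was sequenced from 16 libraries of A375 and 451Lu, human BRAF-mutant melanoma lines, each as a derivative that had become resistant to inhibitors of the BRAF and MEK kinases. The comparisons ask how the transcripts changed when the inhibitors were taken away.

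DR A375 cells were sampled 6, 24 and 48 h after a change to DMSO, the solvent of the drugs, and while still on 0.5 μM dabrafenib, a BRAF inhibitor, with 0.05 μM trametinib, a MEK inhibitor. 451Lu BR cells were sampled 24, 72 and 120 h after the change to DMSO, and while still on 1 μM dabrafenib. For 451Lu the treatment notes name dabrafenib alone, whereas the source field names both drugs. Each of the 8 groups holds 2 libraries. The labels do not say that these came from separate cultures, so the p-values below measure only the spread between the libraries, which may be technical. Each line is a single resistant derivative, line and drug cannot be told apart, and 24 h is the only time off drug that both lines share. All comparisons of a line with on drug share the same 2 on-drug libraries. No on-drug group was sampled at the times off drug, so removal of the drug and time since the change to DMSO cannot be told apart.

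Cytosolic chaperones such as HSP70 and HSP90 bind unfolded chains and pass them on until they fold, and the transcription factor HSF1 raises their genes when unfolded protein builds up. In the ER the sensors IRE1 (gene ERN1), ATF6 and PERK read the load of unfolded secretory protein. IRE1 splices the mRNA of XBP1, and XBP1 and ATF6 then raise the genes of ER chaperones and of the machinery that sends misfolded proteins back to the cytosol for degradation. HSF1 binds heat shock elements, and ATF6 and XBP1 act at ER stress elements.

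These elements were looked up in RefSeq promoters (GRCh38.p14, 250 bases before to 50 bases after the start), where 40 of the 42 genes had an entry. HSF1 and PDIA3 had none. An ER stress element, searched on both strands as CCAAT and CCACG with 9 bases of any kind between them, stood in 27 of 35116 promoters of the table (0.0769%). By gene this was 25 of 27305 genes, and 7 of these 25 were among the 20 ER genes of the list that had an entry. No cytosolic and no mitochondrial gene of the list had one in this window. HSP90B1 held 2 of the 8 sites. The fixed letters are in capitals and each site is read from its CCAAT end.
HSPA5, chr9:125241391-125241409, minus strand: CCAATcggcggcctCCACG
HSP90B1, chr12:103930216-103930234, plus strand: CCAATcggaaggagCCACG
HSP90B1, chr12:103930321-103930339, minus strand: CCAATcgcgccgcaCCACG
CALR, chr19:12938384-12938402, minus strand: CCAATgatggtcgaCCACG
CANX, chr5:179698778-179698796, plus strand: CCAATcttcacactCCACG
CRELD2, chr22:49918554-49918572, minus strand: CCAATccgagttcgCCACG
PDIA6, chr2:10812853-10812871, minus strand: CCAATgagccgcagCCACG
XBP1, chr22:28800603-28800621, minus strand: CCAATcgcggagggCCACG
A heat shock element, searched on both strands as 3 units of GAA or its complement TTC in alternation with 2 bases between units, stood in 172 of the 35116 promoters (0.49%). By gene this was 166 of 27305 genes, and the 5 genes of the list with one were HSPA8, HSP90AA1, HSP90AB1 and DNAJA1 of the cytosol and HSPD1 of the mitochondrion. The sites below have the units in capitals. HSPD1 had a second, overlapping match.
HSPA8, chr11:123062179-123062191, minus strand: TTCtgGAAggTTC
HSPA8, chr11:123062354-123062366, minus strand: GAAagTTCcaGAA
HSP90AA1, chr14:102087120-102087132, minus strand: TTCcgGAAggTTC
HSP90AB1, chr6:44247778-44247790, plus strand: TTCtgGAAgaTTC
HSP90AB1, chr6:44247831-44247843, plus strand: TTCtgGAAgcTTC
DNAJA1, chr9:33025276-33025288, plus strand: GAActTTCcaGAA
HSPD1, chr2:197500068-197500080, minus strand: GAAagTTCtgGAA
The whole windows of HSPA5 and HSPA8 are given because these genes carried the largest rises of the ER and the cytosolic genes in A375, and the matched letters are in capitals. A match is a run of letters and no measure of binding, and its part in the changes off drug was not tested. Only exact matches were sought, so a gene without one may hold a near match or a site outside the window.
HSPA5 promoter, chr9:125241294-125241593, minus strand: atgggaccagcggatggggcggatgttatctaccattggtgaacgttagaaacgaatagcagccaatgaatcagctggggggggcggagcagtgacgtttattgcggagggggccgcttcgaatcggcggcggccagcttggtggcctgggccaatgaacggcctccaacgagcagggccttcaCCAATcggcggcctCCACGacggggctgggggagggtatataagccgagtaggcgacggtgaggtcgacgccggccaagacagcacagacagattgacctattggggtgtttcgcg
HSPA8 promoter, chr11:123062087-123062386, minus strand: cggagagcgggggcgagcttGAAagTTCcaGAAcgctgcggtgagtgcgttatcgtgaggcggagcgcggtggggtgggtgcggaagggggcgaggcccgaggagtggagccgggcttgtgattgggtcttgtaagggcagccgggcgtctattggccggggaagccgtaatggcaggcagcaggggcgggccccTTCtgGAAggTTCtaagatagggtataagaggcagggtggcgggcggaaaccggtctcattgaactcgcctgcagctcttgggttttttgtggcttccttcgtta

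The libraries held 9714190 to 16691725 counts each, and the 42 genes took 1.56% to 2.95% of them. Transcripts of the mitochondrial genome took 2.6% to 5.08% of counts off drug and 4.81% to 6.11% on drug. Within groups, the counts of the 2 libraries differed by 1.29 to 6.03 times what counting error alone gives (chi-square over its degrees of freedom), so no pair was a repeat deposit. All 7 markers of the melanocyte lineage used to check the cell type were detected, and all 7 fell at 451Lu 24, 72 and 120 h and at A375 6 and 48 h, while 6 of 7 fell at A375 24 h. Of 9 markers of other cell types, 7 were in the table, and their summed level, in CPM (counts divided by library size and scaled over all 16 libraries), was 3.34 to 16.9 CPM off drug and 24.4 to 24.5 CPM on drug in A375, and 27.9 to 130.1 CPM off drug and 139.7 to 154 CPM on drug in 451Lu. EPCAM was at 0 counts in all 451Lu and all off-drug A375 libraries, and PTPRC was at 0 in all 451Lu libraries. Most of the sum in 451Lu was LUM on drug and PECAM1 at 120 h off drug. In A375 most of it was LUM, at 363 and 333 counts on drug and 28 and 31 counts at 48 h. PTPRC had 51 and 31 counts in A375 on drug and 2 and 2 counts at 48 h, and VWF was above 0 in every library. The part of these shifts in the results below was not tested. Processed pseudogenes share sequence with some of the genes, up to 16.6% of the 50-base words of HSP90AB1, 15.3% of PDIA3 and 13.2% of HSPD1, and other genes overlap 36.5% of the exon bases of HSPA1B, 30.1% of CCT5, 25.2% of PDIA6, 23.9% of HSPE1 and 23.2% of DNAJB11, so their counts may hold reads of those neighbours. In bulk RNA, fewer cells of a type and less RNA per cell cannot be told apart.

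Levels below are in the same CPM. Fold changes come from edgeR's quasi-likelihood test, fitted to all genes of a line, with SE from the fit and p-values adjusted by Benjamini-Hochberg over all genes tested. A gene rose or fell where its adjusted p was under 0.05. Many genes of the whole table passed this threshold, so the counts of chaperone genes are read against the share of all genes tested that passed in the same direction. That share is given with the first count of each comparison and applies to the counts by compartment as well.

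After drug withdrawal chaperone genes of all compartments were higher in A375. At 6 h off drug 38 of the 42 genes were higher than on drug and 2 were lower, where 35.1% of all genes tested rose and 38.1% fell. At 24 h 35 rose and 2 fell, against 36.2% and 36.3% of all genes. Of those 2, DNAJC3 and DNAJB1, only DNAJC3 stayed called whichever of the 4 libraries was left out. At 48 h 35 rose and 3 fell, against 36.6% and 36% of all genes. The median log2 fold change of the 42 genes was 0.65 at 6 h, 0.63 at 24 h and 0.65 at 48 h, and that of all genes was -0.06 at 6 h and -0.02 at 24 h. Tested against a change of 1.5-fold, 21 genes were higher at 6 h, 19 at 24 h and 20 at 48 h, where 15.5%, 13.9% and 15.1% of all genes were. None of the 42 was lower by that test at 6, 24 or 48 h, where 16.1%, 15.5% and 16.2% of all genes were. The heat map of all 42 genes shows A375 mostly in red.

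**Figure D1:**
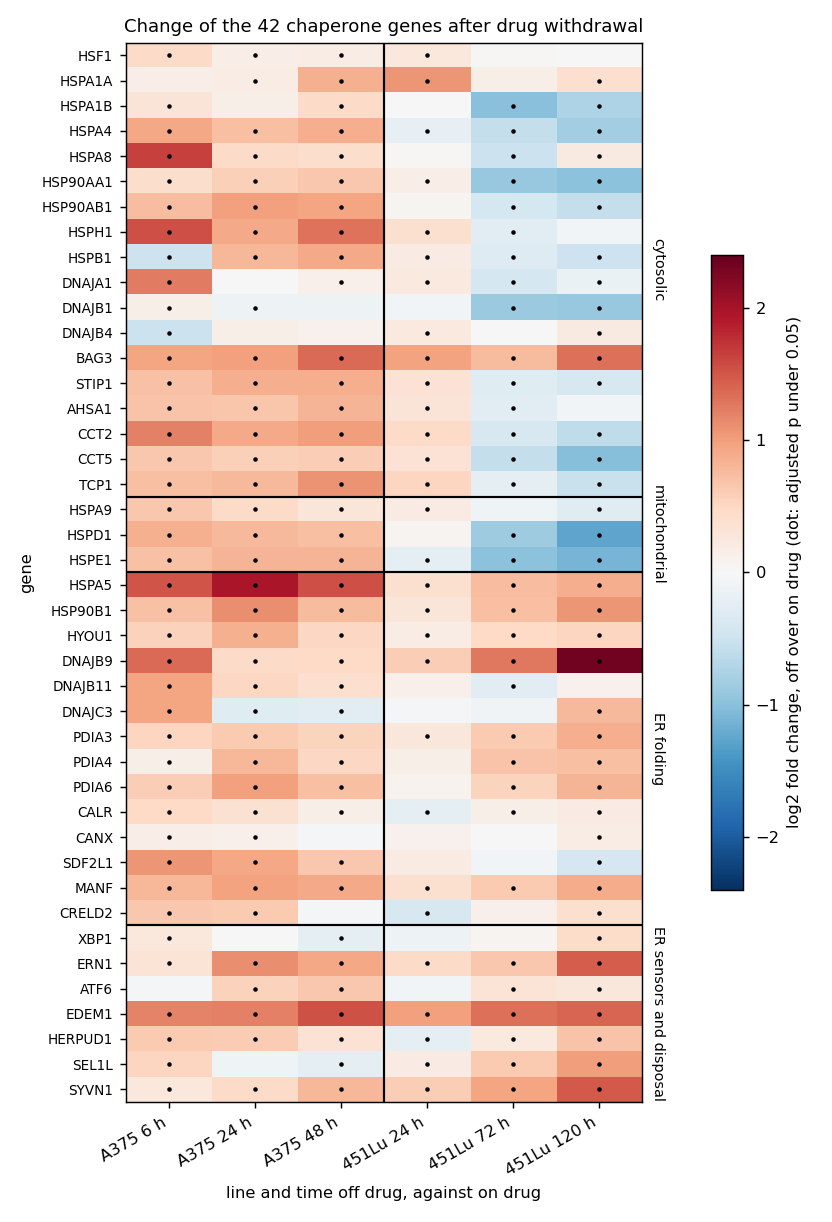
Log2 fold change of each of the 42 genes (rows, by compartment) off drug over on drug, in 3 A375 columns (6, 24 and 48 h) and 3 451Lu columns (24, 72 and 120 h). Red is higher and blue lower off drug, and a dot marks an adjusted p under 0.05. Most cytosolic and mitochondrial rows are blue in 451Lu at 72 and 120 h, while most ER rows stay red.

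Of the 18 cytosolic genes, 15 rose and 2 fell at 6 h in A375, 14 rose and 1 fell at 24 h, and 16 rose and none fell at 48 h. The largest rise was that of HSPA8, the constitutive HSP70. It stood at 2142 and 2131 CPM on drug, 6770 and 6866 CPM at 6 h, 3026 and 3029 CPM at 24 h and 2820 and 3045 CPM at 48 h. It was a spike: 3.11-fold higher than on drug at 6 h (log2 1.64, SE 0.0415, adjusted p = 1.52e-27), then 2.25-fold lower at 24 h than at 6 h (adjusted p = 6.67e-23), yet still above its level on drug in both libraries at 48 h. DNAJA1, a J-domain partner that delivers clients to HSP70, had 534 and 559 CPM at 6 h against 222 and 224 CPM on drug, a log2 change of 1.26 (SE 0.0437). By 24 h it was back at 226 and 229 CPM and its change of -0.01 did not pass the test (adjusted p = 0.886).

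HSPH1, an HSP110 that exchanges the nucleotide of HSP70, rose and stayed up. Its level was 216 and 210 CPM on drug, 624 and 660 CPM at 6 h, 409 and 411 CPM at 24 h and 534 and 535 CPM at 48 h. The log2 changes against on drug were 1.55 at 6 h, 0.91 at 24 h and 1.29 at 48 h (SE at most 0.0438, adjusted p at most 2.52e-19). BAG3, which links HSP70 to selective autophagy, was up by 0.95 on the log2 scale at 6 h and rose again between 24 and 48 h (log2 0.38, adjusted p = 1.59e-07). It measured 73.2 and 71.9 CPM on drug, 147 and 142 CPM at 6 h, 150 and 143 CPM at 24 h and 186 and 195 CPM at 48 h, and was 2.57-fold higher at 48 h than on drug (log2 1.36, SE 0.0518, adjusted p = 2.41e-22). All off-drug libraries of BAG3 and HSPH1 lay above both on-drug libraries.

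HSP90AA1, the inducible cytosolic HSP90, rose by 0.43, 0.57 and 0.65 on the log2 scale at 6, 24 and 48 h. Its level was 1619 and 1601 CPM on drug, 2140 and 2306 CPM at 6 h, 2383 and 2516 CPM at 24 h and 2613 and 2574 CPM at 48 h. The constitutive HSP90AB1 rose by 0.73, 0.98 and 0.95, and the HSP90 cochaperones STIP1 and AHSA1 rose by 0.69, 0.88 and 0.86 and by 0.69, 0.66 and 0.81. HSPA4, another HSP110, had 624 and 669 CPM at 6 h, 547 and 563 CPM at 24 h and 622 and 605 CPM at 48 h, after 336 and 321 CPM on drug, with log2 changes of 0.94, 0.72 and 0.86. The subunits CCT2, CCT5 and TCP1 of TRiC, the chaperonin ring that folds actin and tubulin, also rose at each time, CCT2 by up to 1.21 at 6 h and TCP1 by up to 1.08 at 48 h. CCT5 held 810 and 840 CPM at 6 h, 780 and 789 CPM at 24 h and 783 and 806 CPM at 48 h, after 520 and 513 CPM on drug.

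The inducible HSP70 genes themselves moved little at first. HSPA1A had 26.5 and 28.3 CPM on drug, 32.2 and 30.2 CPM at 6 h, 32 and 31.2 CPM at 24 h and 48.6 and 52.3 CPM at 48 h. Its neighbour and near-copy HSPA1B had 25.7 and 23.4 CPM on drug, 29.7 and 32.9 CPM at 6 h, 28 and 27.5 CPM at 24 h and 32.8 and 36.1 CPM at 48 h. The transcripts share 71.3% of the 50-base words of HSPA1A and 73.5% of those of HSPA1B, so the split between them is uncertain and their sum is the firmer measure. The overlap of HSPA1B is with a transcript on its own strand, whose reads may be in its count and in the sum. Summed, they were higher by 0.23 at 6 h, 0.16 at 24 h and 0.68 at 48 h on the log2 scale (adjusted p = 0.00137, 0.0192 and 2.71e-12). HSF1, their activator, had 117 and 120 CPM at 6 h against 83.1 and 84 CPM on drug (log2 0.46, SE 0.0557), and 99.2 and 92.7 CPM at 24 h and 91.1 and 101 CPM at 48 h. Its rises of 0.17 at 24 and 48 h lost the call without on-drug replicate 1, the first also without 24 h replicate 1 and the second without 48 h replicate 2 (adjusted p up to 0.12 and 0.201).

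The small heat shock protein HSPB1 and the J-domain protein DNAJB4 were the 2 genes that fell at 6 h. HSPB1 was at 64.5 and 64.9 CPM at 6 h against 88.9 and 89.8 CPM on drug (log2 -0.50, SE 0.0659), and then at 164 and 154 CPM at 24 h and 157 and 185 CPM at 48 h, above both on-drug libraries. DNAJB4 was at 20.4 and 26.6 CPM at 6 h against 34.1 and 31.4 CPM on drug (log2 -0.52, SE 0.091), and at 24 and 48 h it did not pass the test. DNAJB1, a J-domain protein that works with HSPA1A and HSPA8 on aggregates, stayed within 0.14 log2 units of its on-drug level at all times in A375, and its calls at 6 h (0.14) and 24 h (-0.13) were lost under other settings and without each of several libraries (adjusted p up to 0.124 and 0.299).

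All 3 mitochondrial genes rose at each time in A375. HSPD1 and HSPE1 form the folding chamber of the mitochondrial matrix and its lid, and their genes lie head to head. HSPD1 was at 966 and 946 CPM on drug, 1770 and 1790 CPM at 6 h, 1666 and 1703 CPM at 24 h and 1611 and 1622 CPM at 48 h (log2 0.86, 0.78 and 0.73). HSPE1 was at 65.2 and 67 CPM on drug, 109 and 111 CPM at 6 h, 116 and 123 CPM at 24 h and 119 and 119 CPM at 48 h (log2 0.70, 0.82 and 0.82). HSPA9, the HSP70 of the matrix and of protein import, was at 653 and 658 CPM on drug, 1057 and 1062 CPM at 6 h, 924 and 917 CPM at 24 h and 810 and 824 CPM at 48 h (log2 0.65, 0.45 and 0.28). HSPA9 thus came down again step by step, at adjusted p = 4.03e-05 between 24 and 6 h and 0.00135 between 48 and 24 h. Of the exon bases of HSPE1, 23.9% overlap HSPD1 or the readthrough gene HSPE1-MOB4, and the strand setting of the counting is not given in the sources used here, so reads of these genes may be shared.

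All 14 ER folding genes rose at 6 h in A375, 13 rose and 1 fell at 24 h, and 11 rose and 1 fell at 48 h. HSPA5, the ER HSP70 known as BiP, carried the largest rise of any of the 42 genes in A375. It stood at 584 and 580 CPM on drug, 1657 and 1732 CPM at 6 h, 2489 and 2178 CPM at 24 h and 1712 and 1787 CPM at 48 h. At 24 h it was 3.91-fold higher than on drug (log2 1.97, SE 0.0484, adjusted p = 5.2e-28), and at 48 h it was lower than at 24 h (log2 -0.41, adjusted p = 1.13e-08). HSP90B1, the ER HSP90, followed the same course, with 836 and 820 CPM on drug, 1332 and 1445 CPM at 6 h, 1866 and 1821 CPM at 24 h and 1435 and 1430 CPM at 48 h (log2 0.71, 1.12 and 0.76). Per kilobase of exon, HSPA5 was the third highest of the 42 genes at 24 h off drug (597 CPM per kilobase), against the eighth on drug (148.9 CPM per kilobase). HSPA8, next above it at 624.5 CPM per kilobase, lay between the 2 HSPA5 libraries.

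PDIA6 (log2 0.98), HYOU1 (0.84) and PDIA4 (0.79) were also highest at 24 h in A375, above 6 and 48 h in both libraries. MANF was higher by 0.96 at 24 h and 0.91 at 48 h, and these 2 times did not differ past the test (adjusted p = 0.57). PDIA4 and PDIA6 are disulphide isomerases, HYOU1 exchanges the nucleotide of BiP, and MANF is a small protein that binds BiP. A second set was highest at 6 h: DNAJB9, a J-domain partner of BiP that also restrains IRE1, had 57.5 and 65.9 CPM at 6 h against 23.8 and 23.1 CPM on drug (log2 1.36, SE 0.0749), and then 34 and 32 CPM at 24 h and 32.7 and 33.9 CPM at 48 h. DNAJB11 (log2 0.94) and DNAJC3 (0.94) were also highest at 6 h. SDF2L1 was higher by 1.05 at 6 h and 0.93 at 24 h, a step that did not pass the test (adjusted p = 0.165). DNAJC3, which in the ER acts as a J-domain partner of BiP, was lower than on drug at 24 h (-0.30) and 48 h (-0.27). The lectin chaperones moved less. CALR had 853 and 861 CPM at 6 h, 819 and 766 CPM at 24 h and 671 and 683 CPM at 48 h, after 601 and 598 CPM on drug (log2 0.48, 0.37 and 0.14), and CANX stayed within 0.16 log2 units of its on-drug level.

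Of the 7 genes of ER sensing and disposal, 6 rose at 6 h in A375, 5 at 24 h and 5 at 48 h, and 2 fell at 48 h. EDEM1, which routes misfolded glycoproteins to disposal, was at 73.7 and 74 CPM on drug, 172 and 172 CPM at 6 h, 174 and 177 CPM at 24 h and 230 and 208 CPM at 48 h (log2 1.18, 1.21 and 1.53, SE at most 0.054). ERN1, the gene of IRE1, was at 32.8 and 34.1 CPM on drug, 43.1 and 42.8 CPM at 6 h, 71.7 and 76.5 CPM at 24 h and 67.6 and 63.3 CPM at 48 h, 2.16-fold higher at 24 h than on drug (log2 1.11, SE 0.0635). ATF6 lagged behind it, with 110 and 104 CPM on drug and 104 and 108 CPM at 6 h, then 162 and 159 CPM at 24 h and 170 and 172 CPM at 48 h. Its change did not pass at 6 h (adjusted p = 0.417) and was 0.55 at 24 h and 0.65 at 48 h. Total XBP1 mRNA, which does not tell the spliced from the unspliced form, was at 156 and 154 CPM on drug, 181 and 198 CPM at 6 h, 161 and 157 CPM at 24 h and 136 and 139 CPM at 48 h, so it rose by 0.25 at 6 h and fell by 0.21 at 48 h. SYVN1, the ubiquitin ligase HRD1 of ER disposal, had 65 and 77.9 CPM at 48 h against 38.9 and 41.6 CPM on drug (log2 0.80). Its partner SEL1L rose by 0.52 at 6 h and was lower by 48 h (log2 -0.24).

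Between times off drug in A375, 16 genes were higher and 14 lower at 24 h than at 6 h, where 35.5% and 34.2% of all genes were. From 24 to 48 h 9 were higher and 13 lower, where 14.2% and 15.7% of all genes were. In that later step 7 of the 18 cytosolic genes rose and none fell, while 9 of the 14 ER folding genes fell and none rose.

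**Figure D2:**
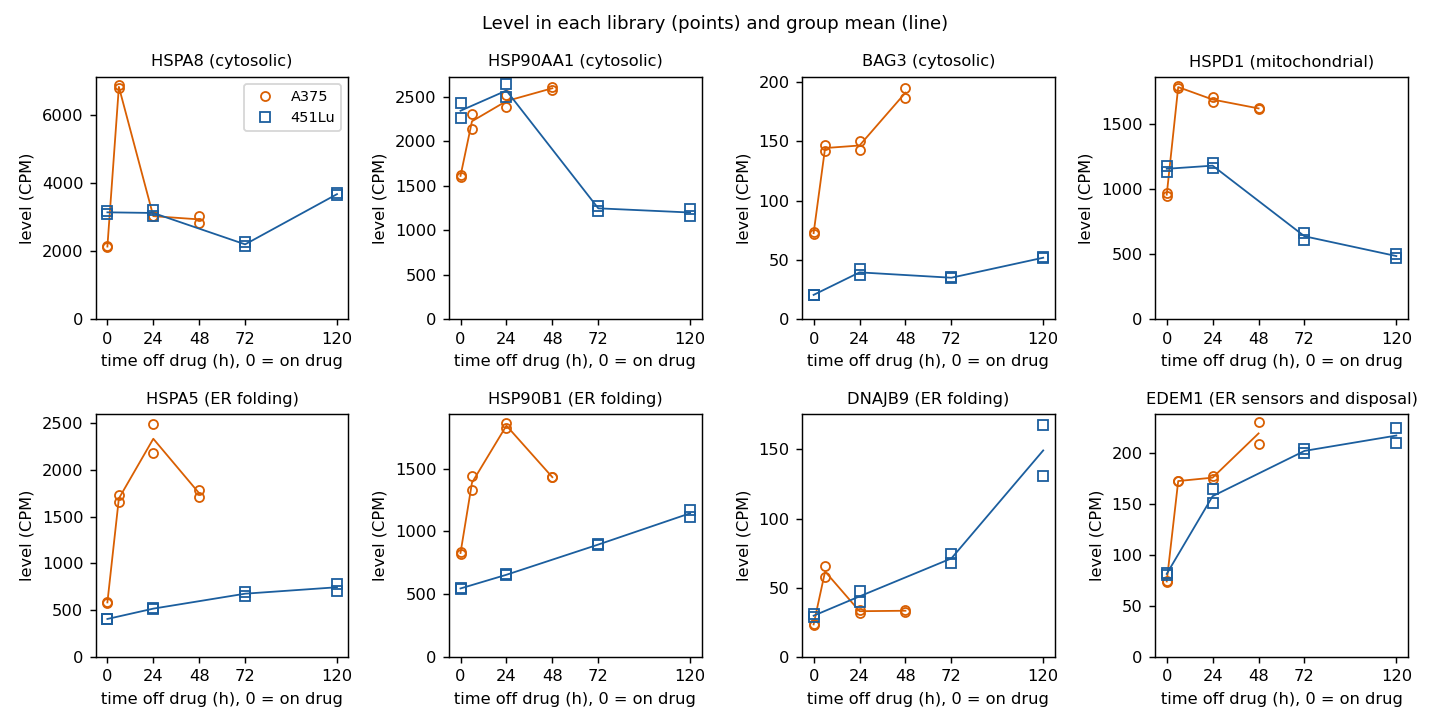
Level in CPM (vertical axis, from 0) against hours off drug (0 is on drug) for 8 genes in A375 (circles) and 451Lu (squares). Points are libraries and lines join group means of 2 libraries. HSPA8 spikes to 6770 and 6866 CPM in A375 at 6 h, a time at which 451Lu was not sampled, and HSP90AA1 and HSPD1 are lowest in 451Lu at 72 and 120 h.

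In 451Lu the compartments parted. At 24 h off drug 24 of the 42 genes rose and 5 fell, where 29.2% of all genes tested rose and 24.9% fell. In DESeq2 22 rose and 3 fell. Short of the test against 1.5-fold, calls lost under other settings, rises among them, had log2 changes of at most 0.254 in size. With on-drug replicate 1 left out 2 fell, and with on-drug replicate 2 or 24 h replicate 2 left out 3 fell. At 72 h 16 rose and 17 fell, where 34.2% and 33.4% of all genes did. At 120 h 23 rose and 15 fell, where 37.3% and 36.6% of all genes did. Of the 18 cytosolic genes 13 rose and 1 fell at 24 h, 1 rose and 14 fell at 72 h, and 4 rose and 11 fell at 120 h. Of the 21 ER genes 10 rose and 3 fell at 24 h, 15 rose and 1 fell at 72 h, and 19 rose and 1 fell at 120 h. Of the 3 mitochondrial genes 2 fell at 72 h and all 3 at 120 h. Median log2 changes at 120 h were -0.45 for the cytosolic, -1.12 for the mitochondrial, 0.75 for the ER folding and 1.01 for the ER sensing and disposal genes.

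The changes at 24 h were small. Tested against 1.5-fold, 3 genes were higher and none lower at 24 h in 451Lu, where 9.27% and 7.86% of all genes were. At 72 h 6 were higher and 5 lower, where 17.4% and 14.3% of all genes were. At 120 h 13 were higher and 7 lower, where 22.1% and 18.9% of all genes were. The 13 were BAG3 and 12 ER genes, and the 7 were HSPA1B, HSPA4, HSP90AA1, DNAJB1 and CCT5 of the cytosol with HSPD1 and HSPE1. HSPA1B, also among the 5 at 72 h, and HSPA1A, among the 3 at 24 h, rest on the uncertain split between them. Summed, they were 1.34-fold higher at 24 h, 1.45-fold lower at 72 h and 1.22-fold lower at 120 h.

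**Figure D3:**
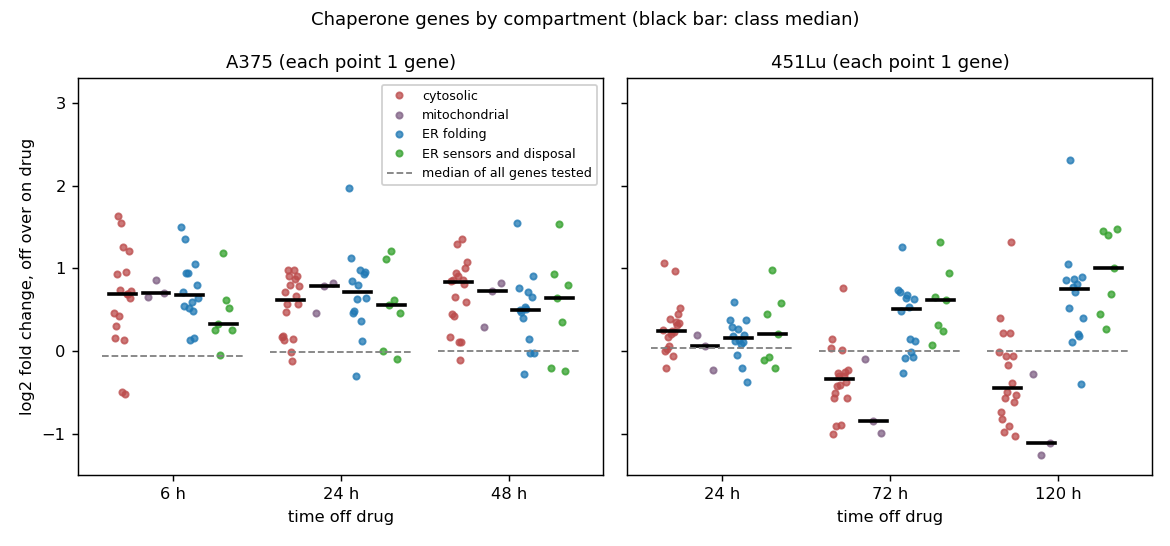
Log2 fold change off over on drug (vertical axis) of each gene (points), by compartment (colours) and time off drug (horizontal axis), in A375 and in 451Lu. Black bars are class medians and dashed lines the median of all genes tested. The class medians lie together above the dashed line in A375 and part in 451Lu at 72 and 120 h, where the cytosolic medians are -0.34 and -0.45 and the ER folding medians 0.51 and 0.75.

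Among the cytosolic genes of 451Lu, BAG3 was higher than on drug at each time, as in A375. It was at 20.8 and 20.5 CPM on drug, 42.1 and 37 CPM at 24 h, 34.8 and 35.3 CPM at 72 h and 52.4 and 51.4 CPM at 120 h, 2.49-fold higher at 120 h than on drug (log2 1.31, SE 0.0854, adjusted p = 5.57e-10). HSP90AA1 held 2427 and 2255 CPM on drug, 2491 and 2644 CPM at 24 h, 1217 and 1276 CPM at 72 h and 1162 and 1237 CPM at 120 h. It was 1.97-fold lower at 120 h than on drug (log2 -0.98, SE 0.0595, adjusted p = 2.36e-10), and its rise of 0.16 at 24 h was lost without replicate 2 of either group (adjusted p up to 0.257). CCT5 was at 292 and 284 CPM on drug, 349 and 366 CPM at 24 h, 191 and 196 CPM at 72 h and 143 and 142 CPM at 120 h, higher by 0.34 at 24 h and lower by 120 h (log2 -1.03, SE 0.0549). For HSP90AA1 and CCT5, all libraries of 72 and 120 h lay below all libraries of on drug and 24 h.

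HSPA8 did not hold its fall. It was at 3182 and 3098 CPM on drug, 3210 and 3032 CPM at 24 h, 2263 and 2139 CPM at 72 h and 3642 and 3703 CPM at 120 h. It fell by 0.51 at 72 h (SE 0.0549), and its rise of 0.21 at 120 h was at adjusted p = 0.0521 without replicate 2 of 120 h. HSPH1 was at 160 and 146 CPM on drug, 202 and 191 CPM at 24 h, 126 and 129 CPM at 72 h and 153 and 144 CPM at 120 h, higher by 0.39 at 24 h and lower at 72 h (log2 -0.26). HSPA4 fell at each time, with 664 and 631 CPM on drug, 544 and 560 CPM at 24 h, 450 and 423 CPM at 72 h and 374 and 364 CPM at 120 h (log2 -0.20, -0.57 and -0.83). HSF1 was at 107 and 108 CPM on drug, 133 and 118 CPM at 24 h, 112 and 108 CPM at 72 h and 111 and 103 CPM at 120 h. Its change did not pass at 72 h (adjusted p = 0.678) or 120 h (0.825), and its rise of 0.25 at 24 h did not pass without replicate 1 of 24 h (adjusted p = 0.105).

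HSPA1A and HSPA1B went separate ways in 451Lu, which their shared sequence makes uncertain. HSPA1A was at 18.6 and 17.3 CPM on drug, 37.3 and 36 CPM at 24 h, 18 and 21.6 CPM at 72 h and 24.4 and 23.4 CPM at 120 h. HSPA1B was at 41.2 and 37.8 CPM on drug, 38.5 and 38.7 CPM at 24 h, 18.6 and 20.6 CPM at 72 h and 21.7 and 26.1 CPM at 120 h. Summed, they were higher by 0.42 at 24 h (adjusted p = 0.00015) and lower at 72 h (log2 -0.54, adjusted p = 2.4e-05) and 120 h (log2 -0.28, adjusted p = 0.00417). The sum thus reversed the rise of HSPA1A alone at 120 h (log2 0.40).

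The mitochondrial pair fell furthest. HSPD1 was at 1177 and 1131 CPM on drug, 1157 and 1199 CPM at 24 h, 610 and 664 CPM at 72 h and 467 and 504 CPM at 120 h, 2.4-fold lower at 120 h than on drug (log2 -1.26, SE 0.0605, adjusted p = 1.06e-11). HSPE1 was at 90.8 and 79.8 CPM on drug, 72.8 and 69.8 CPM at 24 h, 44 and 41.5 CPM at 72 h and 39.2 and 40 CPM at 120 h (log2 -1.12 at 120 h, SE 0.0777). HSPA9 moved least, with 938 and 932 CPM on drug, 1044 and 1053 CPM at 24 h, 899 and 841 CPM at 72 h and 804 and 749 CPM at 120 h. It was higher by 0.19 at 24 h, a call lost without on-drug replicate 2 (adjusted p = 0.056), and lower at 120 h (log2 -0.28).

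Most ER genes of 451Lu were higher than on drug by 72 h, and 14 of the 21 rose again from 72 to 120 h, where 16.6% of all genes did. At 24 h CALR, CRELD2 and HERPUD1 were below their on-drug levels and 8 of the 21 did not pass the test. DNAJB9 was at 30.7 and 28.7 CPM on drug, 47.5 and 39.9 CPM at 24 h, 74.5 and 67.8 CPM at 72 h and 168 and 130 CPM at 120 h. At 120 h it was 4.98-fold higher than on drug (log2 2.32, SE 0.108, adjusted p = 7.56e-12), the largest change of any of the 42 genes in either line. HSP90B1 was at 550 and 540 CPM on drug, 649 and 659 CPM at 24 h, 898 and 892 CPM at 72 h and 1173 and 1116 CPM at 120 h (log2 0.29, 0.72 and 1.06). HSPA5 was at 403 and 406 CPM on drug, 522 and 509 CPM at 24 h, 696 and 654 CPM at 72 h and 782 and 706 CPM at 120 h (log2 0.38, 0.74 and 0.86). DNAJB9, HSP90B1 and HSPA5 were thus higher in both libraries at each later time, though the step of HSPA5 from 72 to 120 h did not pass the test (log2 0.12, adjusted p = 0.132). The isomerases PDIA3, PDIA4 and PDIA6 rose by 0.87, 0.72 and 0.81 at 120 h, and DNAJC3 rose by 0.78 after no call at 24 or 72 h. SDF2L1, which binds DNAJB11, was the single ER gene lower at 120 h (log2 -0.39), and this call was lost without replicate 2 of either group (adjusted p up to 0.0775).

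All 7 genes of ER sensing and disposal rose at 120 h in 451Lu. EDEM1 was at 82.3 and 80.2 CPM on drug, 150 and 164 CPM at 24 h, 200 and 204 CPM at 72 h and 224 and 210 CPM at 120 h (log2 0.98, 1.32 and 1.40, SE at most 0.0627). SYVN1 was at 52.7 and 56.3 CPM on drug, 84.1 and 75.8 CPM at 24 h, 110 and 99 CPM at 72 h and 158 and 148 CPM at 120 h, 2.78-fold higher at 120 h than on drug (log2 1.48, SE 0.0744). ERN1 was at 29.8 and 30.8 CPM on drug, 41.4 and 39.9 CPM at 24 h, 48.2 and 46.8 CPM at 72 h and 87.9 and 79.1 CPM at 120 h (log2 1.45 at 120 h, SE 0.0747). For EDEM1, SYVN1 and ERN1 no library of a later group lay below a library of an earlier one. SEL1L rose by 1.01 and HERPUD1, a part of the HRD1 complex, by 0.69 at 120 h. XBP1 had 377 and 350 CPM at 120 h against 260 and 267 CPM on drug (log2 0.45), after 239 and 239 CPM at 24 h and 275 and 276 CPM at 72 h. ATF6 had 87.8 and 85.1 CPM at 72 h and 83.9 and 84.5 CPM at 120 h, after 69.3 and 69.5 CPM on drug and 60.4 and 69.2 CPM at 24 h (log2 0.32 and 0.26 at the later times).

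The split opened between 24 and 72 h. In that step 17 of the 42 genes were higher and 21 lower, where 25.9% and 25.5% of all genes were. The 17 were all ER genes, and the 21 were 17 cytosolic genes, the 3 mitochondrial genes and DNAJB11, an ER J-domain protein. From 72 to 120 h 18 were higher and 7 lower, where 16.6% and 16.1% of all genes were. As a share of all counts, cytosolic genes took 0.722% and 0.746% at 120 h against 1.14% and 1.12% on drug. ER folding genes took 0.707% and 0.667% at 120 h against 0.55% and 0.552% on drug. These shares lack the library scaling behind the CPM levels, whose factors were 0.8485 and 0.8576 at 120 h and 1.042 and 1.048 on drug. They thus show a larger cytosolic fall and a smaller ER rise than scaled levels would.

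At the shared time of 24 h, 21 of the 42 genes rose in both lines and none fell in both, where 18.6% and 13.9% of the 12814 genes tested in both lines did. Another 5 rose in A375 and fell in 451Lu and none did the reverse, where 5.33% and 5.6% of those genes did. Whether A375 and 451Lu responded by the same amount at 24 h was tested in 1 fit of all 16 libraries. The log2 change in A375 minus that in 451Lu was positive for 30 of the 42 genes and negative for 3, where 27.4% and 22% of all genes were. HSPA5 differed most, by 1.65 on the log2 scale (SE 0.0825, adjusted p = 8.63e-15), with 2489 and 2178 CPM off and 584 and 580 CPM on drug in A375, and 522 and 509 CPM off and 403 and 406 CPM on drug in 451Lu. BAG3 (difference 0.07, adjusted p = 0.604), DNAJB9 (-0.07, 0.77) and SYVN1 (-0.06, 0.697) were among the 9 genes that did not pass. The 3 negative genes were HSPA1A, DNAJA1 and SEL1L. DNAJA1 lost the call without any 1 of 7 of the 8 libraries compared, and SEL1L without replicate 1 of A375 or replicate 2 of 451Lu, on or off drug (adjusted p up to 0.163 and 0.0878), and HSPA1A lost it when summed with HSPA1B (adjusted p = 0.082).

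The 5 genes of opposite direction were HSPA4, HSPE1, CALR, CRELD2 and HERPUD1, of which CALR, CRELD2 and HERPUD1 are ER genes. CRELD2, an ER protein induced by ER stress, had 55.4 and 50.5 CPM off and 33.1 and 33.7 CPM on drug in A375, and 50 and 41.5 CPM off and 59.3 and 62.6 CPM on drug in 451Lu. Its changes were 0.64 in A375 and -0.38 in 451Lu, and they differed by 1.08 (SE 0.128, adjusted p = 1.03e-07). HERPUD1 had 214 and 183 CPM off and 130 and 124 CPM on drug in A375, and 65.5 and 59.2 CPM off and 73 and 74.4 CPM on drug in 451Lu. CALR had 771 and 754 CPM off and 882 and 915 CPM on drug in 451Lu, below both on-drug libraries. The differences between lines were 1.11 for HSPE1, 0.98 for HSPA4, 0.89 for HERPUD1 and 0.64 for CALR. The fall in 451Lu itself was lost for HSPA4 without on-drug replicate 1 (adjusted p = 0.0655) and for CALR without on-drug replicate 2 (0.0634). It was lost for HSPE1 and HERPUD1 in DESeq2, without on-drug replicate 1 and without 24 h replicate 2 (up to 0.194 and 0.224), and for HERPUD1 also without on-drug replicate 2. That of CRELD2 passed in each alternative short of the test against 1.5-fold. At 120 h all 3 ER genes lay above both of their on-drug libraries, CRELD2 at 87.8 and 73.8 CPM, HERPUD1 at 127 and 113 CPM and CALR at 1090 and 998 CPM.

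**Figure D4:**
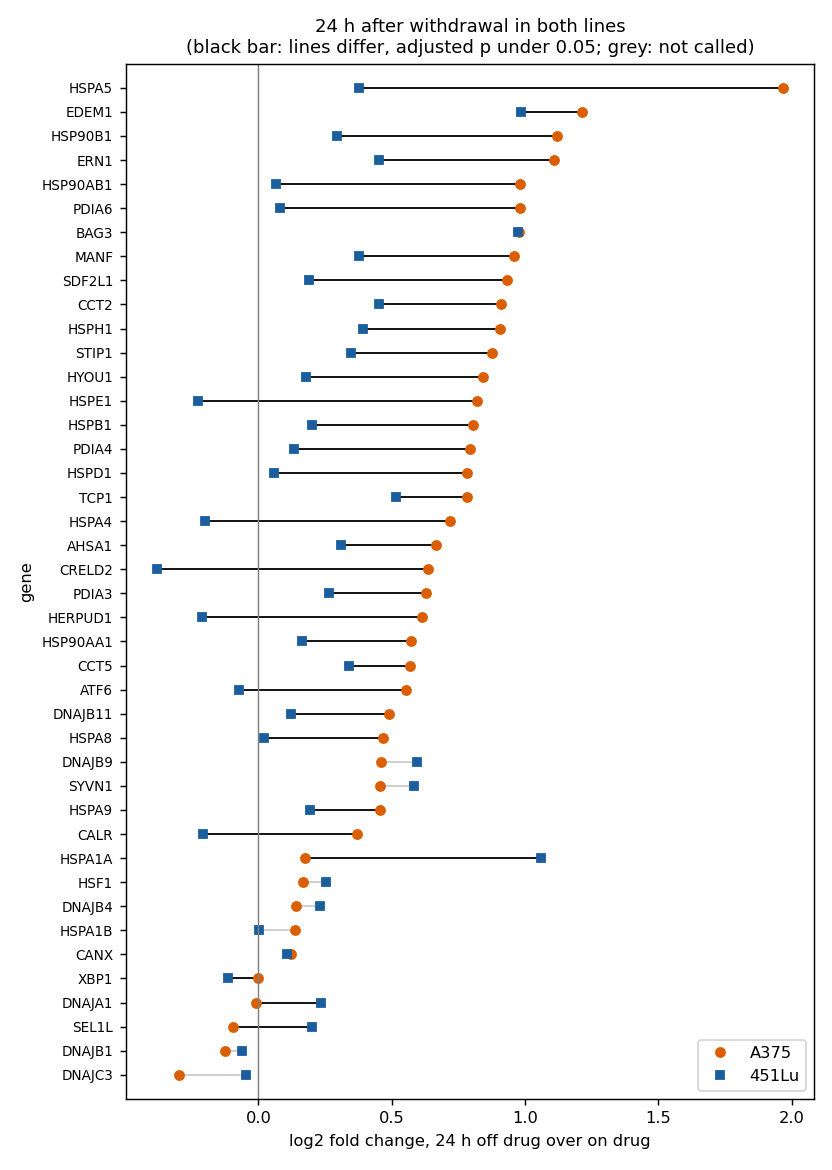
Log2 fold change at 24 h off drug over on drug (horizontal axis) of each gene (rows) in A375 (circles) and 451Lu (squares). A black bar joins the points where the lines differed at an adjusted p under 0.05, and a grey bar where they did not. HSPA5 has the widest gap, 1.65, and the points of BAG3 coincide.

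The lines also differed while on drug. Of the 42 genes 11 were higher and 25 lower in A375 than in 451Lu, where 37.9% and 39.3% of all genes were. BAG3 stood furthest apart, with 73.2 and 71.9 CPM in A375 and 20.8 and 20.5 CPM in 451Lu (3.52-fold, log2 1.81, SE 0.0697, adjusted p = 2.91e-18). HSPA5 was 1.44-fold higher in A375 on drug, so its larger rise there began from a higher level. Per kilobase of exon, HSP90AB1 was the highest of the 42 genes on drug in both lines, at 800 CPM per kilobase in A375 and 828.5 CPM per kilobase in 451Lu. ERN1 was the lowest, at 3.1 CPM per kilobase in A375 and 2.8 CPM per kilobase in 451Lu.

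Further genes of the same pathways, from lists outside the 42 that were also chosen with earlier results known, were counted. The counts below are at 6, 24 and 48 h in A375 and at 24, 72 and 120 h in 451Lu. Of all genes tested, 35.1%, 36.2% and 36.6% rose and 38.1%, 36.3% and 36% fell at those times in A375, and 29.2%, 34.2% and 37.3% rose and 24.9%, 33.4% and 36.6% fell in 451Lu.

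Of 30 other ER folding and disposal genes, 29 were tested in A375, where 20, 20 and 19 rose and 5, 4 and 4 fell. In 451Lu all 30 were tested, and 16, 25 and 27 rose while 4, 2 and 2 fell. ERO1LB, an oxidase that supplies disulphide bonds, was the highest in A375 at 6 h and in 451Lu at 120 h, with log2 changes of 1.29 and 4.33. ERP29, an ER protein related to the isomerases, fell in 451Lu at 120 h (log2 -1.06).

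Of 11 other TRiC and prefoldin subunits, 8, 11 and 10 rose and none fell in A375. In 451Lu 7 rose and none fell at 24 h, 4 rose and 3 fell at 72 h, and none rose and 6 fell at 120 h. PFDN2, a prefoldin subunit, had log2 changes of 1.87 in A375 at 48 h and -0.80 in 451Lu at 120 h. Of 21 other cytosolic chaperones and cochaperones tested, 11, 16 and 15 rose and 4, 1 and 3 fell in A375. In 451Lu 10 rose and 4 fell at 24 h, 3 rose and 12 fell at 72 h, and 5 rose and 14 fell at 120 h. CHORDC1, an HSP90 cochaperone, rose by 1.29 in A375 at 6 h, and HSPB8, a partner of BAG3, rose by 2.55 in 451Lu at 72 h.

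Of 12 other mitochondrial chaperones and proteases, 5 rose and 3 fell in A375 at 6 h, with a median log2 change of 0.04, 8 rose and 2 fell at 24 h, and 10 rose and 2 fell at 48 h. In 451Lu 5 rose and 4 fell at 24 h, 2 rose and 6 fell at 72 h, and 2 rose and 7 fell at 120 h. The counts at A375 6 h and 451Lu 24 h were close to the shares of all genes. TIMM44, which anchors HSPA9 at the import channel, fell in 451Lu at 120 h (log2 -1.32), and GRPEL1, the nucleotide exchanger of HSPA9, rose by 1.61 in A375 at 6 h.

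The PERK arm and the wider integrated stress response slow protein synthesis and raise ATF4 targets. Of 14 genes of that list, 4 rose and 10 fell in A375 at 6 h, with a median log2 change of -0.85. At 24 h 6 rose and 7 fell, and at 48 h 6 rose and 8 fell. In 451Lu 5 rose and 6 fell at 24 h, with a median log2 change of -0.15, and 9 rose and 4 fell at 72 h and at 120 h. NUPR1, a stress-induced transcriptional regulator, fell in A375 at 48 h (log2 -4.40), and PPP1R15A, the phosphatase subunit that ends the response, rose by 2.43 in A375 at 6 h.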

How the data were processed

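RNA-seq read counts per gene were analysed for 16 libraries in 8 groups of 2, grouped by line and time off drug from the sample titles. The values are whole-number read counts as deposited by the authors in 1 table of 30813 genes on GRCh38. TopHat2 2.1.0 and Bowtie 1.0.0 are named in the submitters' processing notes. For the counting tool, its strand setting and its rule for reads with several matches, the sources used here give nothing. Reads without molecular identifiers are not independent molecules.

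From these counts, edgeR 4.0.16 in R 4.3.3 gave TMM factors, quasi-likelihood fits and Benjamini-Hochberg adjusted p-values over all genes kept by its expression filter (minimum count 10, minimum total 15). Each line was fitted alone (8 libraries, 4 residual degrees of freedom, 14449 genes in A375 and 13851 in 451Lu), and comparisons between lines used all 16 libraries (15481 genes). The spread between libraries, as edgeR's common coefficient of variation, came to 3.19% for the A375 fit and 4.98% for the 451Lu fit. All 42 genes passed the filter in both lines. The threshold was an adjusted p of 0.05, and glmTreat tested against 1.5-fold. CPM levels use TMM factors over all 16 libraries, and their log2 ratios differ from the fitted changes by a median of at most 0.0378.

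Alternatives were other size factors (RLE), no filter, DESeq2 1.42.0, a replicate block, 1 fit of all 16 libraries, each library left out in turn, and HSPA1A and HSPA1B added together. Per-library values are given for up to 3 genes per compartment and line with the largest called changes, for genes called in opposite directions at 24 h, and for HSF1, XBP1, ERN1, ATF6, HSPA1A, HSPA1B, HSPA8, HSPA5, HSP90AA1 and HSP90B1. DNAJA1, HSPB1 and DNAJB4 were added after their values were seen. The genes and lists were chosen with earlier results of these data known. Exon lengths and overlaps come from GENCODE release 29, and promoters from RefSeq GRCh38.p14.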

Additional observations from a re-analysis of the deposited data

Results flagged for a closer look

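The change at 24 h off drug was set against that of the other line for each of the 42 genes, and 33 genes are listed because the test of the difference itself passed an adjusted p of 0.05 in edgeR's quasi-likelihood test over 16 libraries. All values are the log2 change in A375 minus that in 451Lu. No group was large enough to look for single outlying libraries.

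Among the cytosolic genes the positive differences were 0.98 for HSPA4, 0.98 for HSP90AB1, 0.66 for HSPB1, 0.59 for STIP1 and 0.58 for HSPH1. Smaller ones were 0.52 for CCT2, 0.51 for HSPA8, 0.47 for HSP90AA1, 0.42 for AHSA1, 0.33 for TCP1 and 0.29 for CCT5. The mitochondrial genes differed by 1.11 for HSPE1, 0.79 for HSPD1 and 0.32 for HSPA9. Among the ER folding genes the differences were 1.65 for HSPA5, 1.08 for CRELD2, 0.96 for PDIA6, 0.89 for HSP90B1, 0.80 for SDF2L1, 0.73 for HYOU1, 0.73 for PDIA4, 0.65 for MANF, 0.64 for CALR, 0.43 for PDIA3 and 0.43 for DNAJB11. The genes of ER sensing and disposal differed by 0.89 for HERPUD1, 0.72 for ERN1, 0.69 for ATF6, 0.30 for EDEM1 and 0.18 for XBP1. The differences of the opposite sign were -0.82 for HSPA1A, -0.23 for SEL1L and -0.18 for DNAJA1. The line, the drug and the dose differ together, so they cannot be told apart as the source of these differences. HSPA5 has the widest difference of the 33, and the 5 genes HSPE1, CRELD2, HSPA4, HERPUD1 and CALR are those in which the 2 lines moved in opposite directions. XBP1 lost the call in 11 of the alternatives (adjusted p up to 0.171), more than any other gene.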

How the results depend on the processing

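The counts of genes that rose or fell moved most with the test against 1.5-fold (glmTreat). By that test 21, 19 and 20 genes were higher and 0 lower in A375 at 6, 24 and 48 h. In 451Lu 3, 6 and 13 were higher and 0, 5 and 7 lower at 24, 72 and 120 h. Between times off drug in A375, 3 were higher and 4 lower at 24 h than at 6 h, and 0 in either direction at 48 h than at 24 h. In 451Lu 0 were higher and 9 lower at 72 h than at 24 h, and 3 higher and 0 lower at 120 h than at 72 h. The 24 h change was larger in A375 for 10 genes and smaller for 1, and on drug 4 genes were higher and 7 lower in A375 than in 451Lu. The gene with the smaller change was HSPA1A, which rests on the uncertain split from HSPA1B. For this difference their sum did not pass edgeR's quasi-likelihood test (adjusted p = 0.082). Between times off drug and between lines, the shares of all genes past 1.5-fold are not given. Those counts are thus not read against all genes.

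Of the small counts of lower genes, that of A375 at 24 h was 2 and became 1 with RLE size factors, DESeq2 and 1 fit of all 16 libraries, and 1 without any single library. That of 451Lu at 24 h was 5, became 3 with DESeq2 and ranged from 2 to 5 with single libraries left out. The count of smaller 24 h changes in A375 was 3 and ranged from 1 to 3 with single libraries left out. All other counts stayed within 1.5 times under these settings. With a group left at 1 library, that library is assumed to vary like the others.

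Reversals came only from adding HSPA1A and HSPA1B together, whose sum takes the place of HSPA1A. The sum was -0.54 in 451Lu at 72 h, -0.28 at 120 h and -0.14 for A375 against 451Lu on drug. HSPA1A alone was 0.15, 0.40 and 0.61 on the log2 scale. The on-drug sum did not itself pass edgeR's quasi-likelihood test (adjusted p = 0.0541).

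The sample titles carry the letters B and C through all groups, given here as replicate numbers. The labels do not say that libraries of the same letter, and so of the same number, belong together. The correlations of same-numbered deviations had a lowest value of -0.227 and a highest of 0.064 over the A375 groups, and a lowest of -0.065 and a highest of -0.014 between off-drug and on-drug groups in 451Lu. Among the 451Lu groups off drug they were 0.23, 0.37 and 0.286, and the cause of this was not tested. With a replicate block 38 genes rose and 2 fell in A375 at 6 h, 35 and 2 at 24 h, and 35 and 3 at 48 h, and 25 and 5, 16 and 17, and 23 and 15 in 451Lu at 24, 72 and 120 h. Between times off drug in 451Lu, 17 rose and 22 fell from 24 to 72 h with the block, and 20 rose and 9 fell from 72 to 120 h, against 17 and 21, and 18 and 7, without it. In A375 15 rose and 14 fell from 6 to 24 h, and 8 rose and 13 fell from 24 to 48 h. Depth limits the low genes most, HSPA1A and HSPA1B among them.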
